A study of Caenorhabditis elegans with 4 samples.

Results

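The X chromosome of Caenorhabditis elegans holds 276 of the 612 nuclear genes annotated as tRNA genes, 45.1% of them on 17.7% of the nuclear sequence. These 276 genes were taken by biotype and chromosome from Ensembl release 115 on ce11 (WBcel235), a rule that uses no binding values, and were set against the other 336 tRNA genes, which lie on the autosomes. UNC-62 ChIP-seq had been done on 4 biological replicates of whole, mixed-sex L3 larvae of strain OP600, genotype unc-119(ed3); wgIs600, an integrated transgene that encodes UNC-62 fused to TY1, EGFP and FLAG beside an unc-119 rescue. All samples share that genotype, and the labels give 1 group with no untagged or mutant larvae, so the comparisons are between sets of genes and not between conditions. Replicates 1 and 2 have fragments of 150 to 350 bp and a stock centre as source in the labels, replicates 3 and 4 microtip sonication and the laboratory as source. The protein was expressed from a transgene and the larvae were sampled whole, so binding in single tissues was not measured.

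UNC-62 belongs to the TALE class of homeodomain proteins, is related to Meis and Prep of vertebrates and Homothorax of flies, and acts with the Pbx-type protein CEH-20 in larval patterning. tRNA genes are transcribed by RNA polymerase III from promoters inside the gene: the factor TFIIIC binds the A box and the B box, recruits TFIIIB upstream of the start, and transcription ends at a run of T bases after the gene. They are short and occur in many identical copies, which matters for any assay that assigns short reads to the genome.

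Sequences are given here for 8 X tRNA genes among those with the highest UNC-62 signal. They are from the reference genome, on the strand of the gene. The best summit lay inside C33G3.t2 and R04D3.t2 and outside the other genes, up to 193 bp away at C16B8.t3. Capitals mark each match to the letters of an A box core (TGGNNNAG) or a B box core (GTTCGANNC), where N is any base. The letters were sought anywhere in the gene. A match thus need not be the box itself, and a gene without a match may still hold the box.
C33G3.t2, tRNA-Lys, chrX:14063946-14064018, minus strand: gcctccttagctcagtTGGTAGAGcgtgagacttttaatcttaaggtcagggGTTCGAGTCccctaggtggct
F15G9.t1, tRNA-Ala, chrX:9743589-9743660, plus strand: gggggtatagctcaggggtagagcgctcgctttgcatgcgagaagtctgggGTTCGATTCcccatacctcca
F15G9.t2, tRNA-Ala, chrX:9743747-9743818, plus strand: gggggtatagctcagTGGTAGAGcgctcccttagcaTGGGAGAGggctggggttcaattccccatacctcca
R04D3.t2, tRNA-Val, chrX:13307034-13307106, plus strand: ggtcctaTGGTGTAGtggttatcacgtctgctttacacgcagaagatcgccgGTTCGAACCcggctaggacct
C53C7.t1, tRNA-Ser, chrX:13046578-13046659, plus strand: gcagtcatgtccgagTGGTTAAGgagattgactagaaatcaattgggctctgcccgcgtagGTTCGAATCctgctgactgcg
F46G11.t1, tRNA-Pro, chrX:5801472-5801543, plus strand: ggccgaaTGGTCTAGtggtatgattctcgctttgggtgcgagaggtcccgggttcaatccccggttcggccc
C16B8.t2, tRNA-Pro, chrX:3970096-3970167, plus strand: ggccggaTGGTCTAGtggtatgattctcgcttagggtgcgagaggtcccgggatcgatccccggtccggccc
C16B8.t3, tRNA-Pro, chrX:3970265-3970336, plus strand: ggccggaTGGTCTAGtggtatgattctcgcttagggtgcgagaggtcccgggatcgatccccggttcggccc

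Both cores were matched in C33G3.t2, R04D3.t2 and C53C7.t1. F15G9.t1 matched the B box core and not the A box core. F15G9.t2 matched the A box core at separate places, and F46G11.t1 and both C16B8 genes matched it once. None of these matched the B box core. The A box matches of C33G3.t2, C53C7.t1 and F15G9.t2 start farther inside the gene than those of R04D3.t2, F46G11.t1 and the C16B8 genes. F46G11.t2, beside F46G11.t1, has the identical sequence. C16B8.t2 and C16B8.t3 differ by 1 base, C66T, counted from 1 at the 5′ end of the gene with the base of C16B8.t2 first. Over all 276 X tRNA genes 63.4% matched the A box core and 72.5% the B box core, against 64.0% and 71.7% of autosomal genes. TTTT lay in the 30 bp after 98.9% of the X genes and 98.8% of the autosomal genes. In these matches by letters the genes of X and of the autosomes hardly differed.

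The second set of sequences shows where the summits lay outside the genes. The first is the 101 bp around the strongest summit at an X tRNA gene, with the bases of the gene in capitals, and the others are the spacers between genes that point away from each other, with the base of the summit in capitals.
Summit at C28G1.t1, chrX:8836036-8836136, plus strand: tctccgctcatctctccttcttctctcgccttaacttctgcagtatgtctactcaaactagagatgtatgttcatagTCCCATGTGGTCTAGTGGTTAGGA
Between C53C7.t2 and C53C7.t1, chrX:13046448-13046577, plus strand: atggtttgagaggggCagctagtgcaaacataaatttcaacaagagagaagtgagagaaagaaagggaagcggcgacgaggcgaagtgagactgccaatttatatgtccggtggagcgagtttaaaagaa
Between F46G11.t2 and F46G11.t1, chrX:5801283-5801471, plus strand: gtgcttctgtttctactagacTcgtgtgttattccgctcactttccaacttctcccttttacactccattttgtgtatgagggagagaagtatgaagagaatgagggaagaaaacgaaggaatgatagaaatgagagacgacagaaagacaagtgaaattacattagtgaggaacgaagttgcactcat
Between M02F4.t2 and M02F4.t1, chrX:3036048-3036163, plus strand: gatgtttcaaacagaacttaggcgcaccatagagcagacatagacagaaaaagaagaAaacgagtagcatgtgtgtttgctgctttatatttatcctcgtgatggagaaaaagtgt

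The UNC-62 data are ranked lists of regions. An optimal list holds 1037 regions kept by an irreproducible discovery rate, which asks whether a region's rank recurs in separate experiments. A merged list of 18556 regions comes from the replicates together, and its 1037 highest regions are the optimal ones. Each replicate has a list of 28073 to 30000 peaks and background regions. A gene was scored as having a summit when the highest point of a region lay within 200 bp of the gene. The number of optimal regions is written K below, and the K highest nuclear regions of each replicate were used to set replicates side by side. The lists hold no read counts, so the depth behind a region is unknown.

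In the optimal list, 24 of 276 X tRNA genes (8.70%) had a summit within 200 bp, against 5 of 336 autosomal tRNA genes (1.49%). The 24 genes lay in 18 loci, and 19 optimal summits were within 200 bp of them. Those 19 were 7.63% of the 249 optimal summits on X, while 5 of the 788 autosomal optimal summits (0.635%) lay at a tRNA gene. The optimal and merged lists are 1 list each for all replicates and so carry no replicate error. To allow for the density of regions, every placement of a 72 bp interval, the median length of an X tRNA gene, was scored the same way. A summit lay within 200 bp of 0.659% of placements on X and of 0.447% of placements on the autosomes. X tRNA genes were thus at 13.2 times the share of placements on their chromosome, and autosomal tRNA genes at 3.33 times. With placements that overlap no protein-coding exon, an alternative chosen after seeing the data, the ratios were 10.04 on X and 2.42 on the autosomes. By autosome, tRNA genes with an optimal summit were 1 of 66 on I, 1 of 57 on II, 1 of 64 on III, 2 of 71 on IV and 0 of 78 on V, each share below that on X.

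Genes of any kind were scored at the 5′ end to give a common background. Of 46890 annotated nuclear genes 1.02% had an optimal summit within 200 bp of the 5′ end, and 11% a merged one. By that measure 24 of 276 X tRNA genes (8.70%) had an optimal summit, against 5 autosomal ones (1.49%), and 42.0% of X tRNA genes had a merged summit, against 29.8% of autosomal ones. The X share thus lay above the background in both lists. The autosomal share was close to the background in the optimal list and above it in the merged list. Protein-coding genes scored from 1000 bp upstream to 200 bp downstream of a start, a wider window, had an optimal summit in 2.63% and a merged one in 29.1%.

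In the merged list 120 X tRNA genes (43.5%) had a summit, against 109 autosomal ones (32.4%), with 9.95% of placements on X and 8.21% on the autosomes. The ratios to placements were 4.37 and 3.95. The contrast between X and autosomes was thus smaller over the whole merged list than in the optimal list, as counts by rank also show. The best region lay among ranks 1 to 1037 for 8.70% of X and 1.49% of autosomal genes, and among ranks 1038 to 5000 for 16.3% of X genes (45) and 13.1% of autosomal genes (44). It lay among ranks 5001 to 10000 for 7.97% of X and 9.52% of autosomal genes, and among ranks 10001 to 18556 for 10.5% of X and 8.33% of autosomal genes. When the optimal regions were taken out of the merged list, 97 X tRNA genes (35.1%) still had a summit, against 104 autosomal ones (31.0%). Whether the contrast differs between rank ranges was not tested, as there is 1 merged list.

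**Figure D1:**
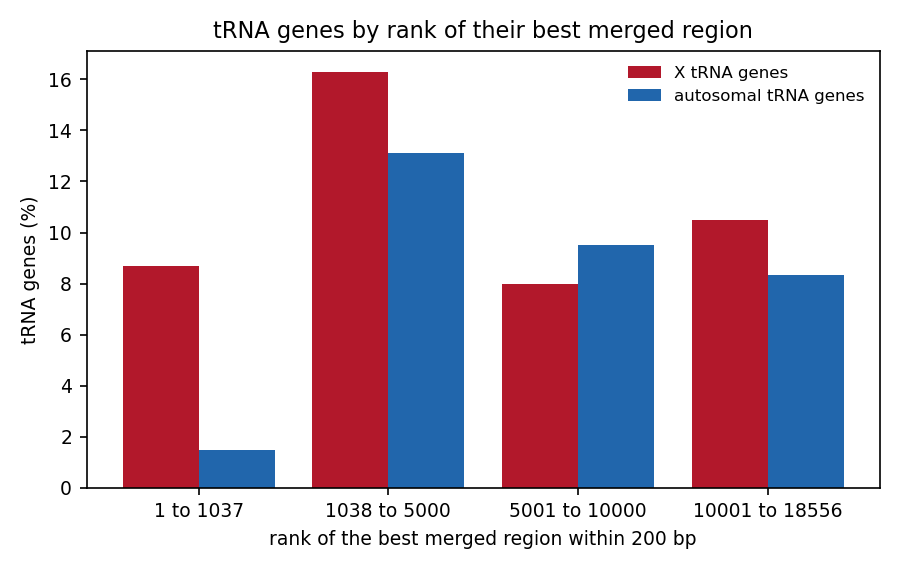
Share of the 276 X tRNA genes (red) and of the 336 autosomal tRNA genes (blue) by the rank of the best merged region within 200 bp, where rank 1 is the highest signal. The bars stand apart in the first bin, at 8.70% and 1.49%, and lie much closer together in the other bins.

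The contrast was present in every replicate among the K highest regions. X tRNA genes with a summit numbered 16, 13, 14 and 12 in replicates 1 to 4, against 2, 4, 8 and 3 autosomal ones. As shares these were 5.80, 4.71, 5.07 and 4.35% of X genes, against 0.595, 1.19, 2.38 and 0.893% of autosomal genes, and the ranges did not overlap. All genes scored at the 5′ end had a summit in 0.913, 0.915, 0.887 and 0.753% of cases in the same lists. The mean share was 4.98% ± 0.619 for X and 1.26% ± 0.783 for autosomal tRNA genes (SD, n = 4 replicates). The difference was 5.20, 3.52, 2.69 and 3.45 percentage points, with a mean of 3.72 ± 1.06 (SD, n = 4), above 0 in 4 of 4 replicates. An exact two-sided permutation test that flips the signs of the 4 differences gave p = 0.125, the smallest p it can give with 4 replicates. Against placements on the same chromosome the excess was 4.35 ± 0.610 percentage points for X genes and 0.815 ± 0.780 for autosomal genes (SD, n = 4, exact permutation p = 0.125 for each). The ratio to placements was 7.87 ± 0.899 for X and 2.81 ± 1.71 for autosomal genes, a difference of 5.06 ± 1.76 that was above 0 in 4 of 4 replicates (exact permutation p = 0.125). Replicates 1 and 2, which share labels, had differences of 5.20 and 3.52 points, and replicates 3 and 4 had 2.69 and 3.45 points.

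With all nuclear regions of each replicate, 128, 89, 123 and 96 X tRNA genes had a summit in replicates 1 to 4, against 111, 98, 107 and 77 autosomal ones. The shares were 46.4, 32.2, 44.6 and 34.8% for X, against 33.0, 29.2, 31.8 and 22.9% for autosomal genes, and the ranges overlapped. Over all genes at the 5′ end the shares were 15.2, 13.5, 14.7 and 13.2%. The mean was 39.5% ± 7.02 for X and 29.2% ± 4.52 for autosomal genes (SD, n = 4). The difference was 13.3, 3.08, 12.7 and 11.9 percentage points in the 4 replicates, with a mean of 10.3 ± 4.82 (exact permutation p = 0.125), and replicate 2 stood below the others. Relative to placements, X genes were at 2.72 ± 0.409 times and autosomal genes at 2.26 ± 0.288 times. That difference of 0.458 ± 0.332 was above 0 in 3 of 4 replicates, was −0.02 in replicate 2, and gave p = 0.25 in the exact permutation test. Both sets of tRNA genes thus stood above placements in all replicate lists, while the excess of X over autosomes in these full lists did not hold in every replicate once the density of regions was taken into account.

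**Figure D2:**
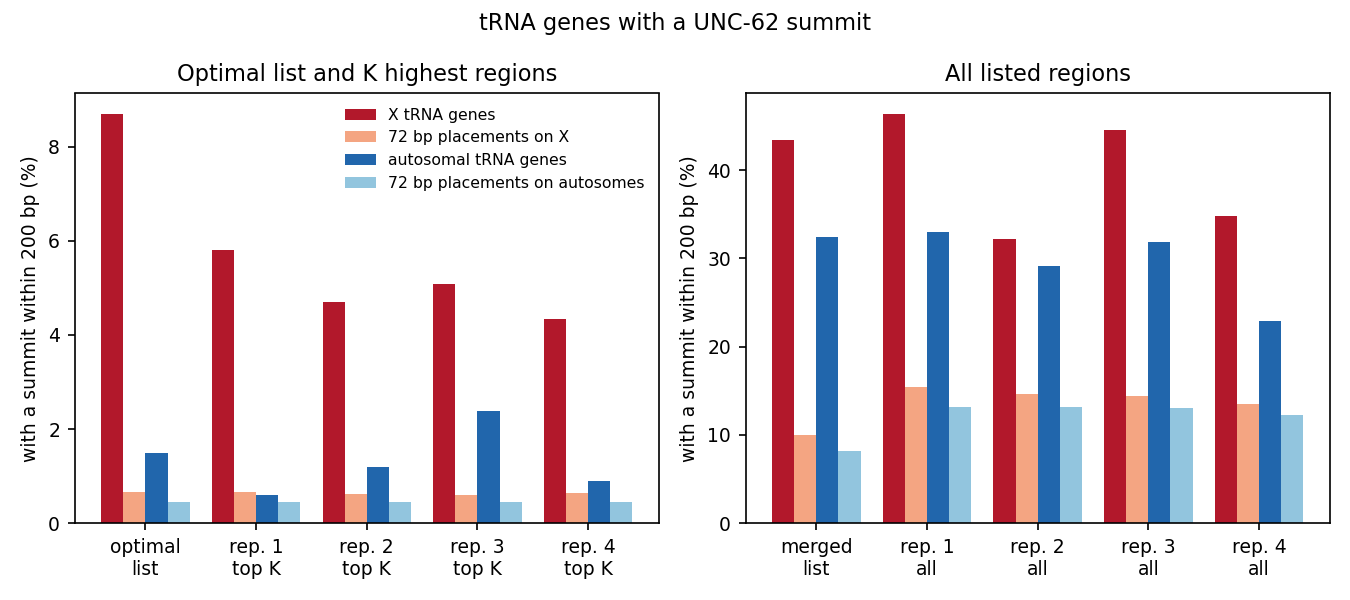
Share of tRNA genes and of 72 bp placements with a UNC-62 summit within 200 bp, in percent. The left panel shows the optimal list and the K highest regions of each replicate, where X tRNA genes stand at 8.70% and at 4.35 to 5.80%. The right panel shows all listed regions, where X and autosomal tRNA genes both stand above placements.

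Single genes recurred less than the shares did. Among the K highest regions, 35 X tRNA genes (12.7%) had a summit in at least 1 replicate and 13 (4.71%) in at least 2. In at least 3 it was 6 (2.17%) and in all 4 it was 1 (0.362%). Of the autosomal tRNA genes 16 (4.76%) had a summit in at least 1 replicate, 1 (0.298%) in at least 2 and 0 in at least 3. How often annotated genes of any kind recurred was not counted. With all regions 207 X genes (75.0%) had a summit in at least 1 replicate, 71 (25.7%) in at least 3 and 28 (10.1%) in all 4, against 223 (66.4%), 42 (12.5%) and 11 (3.27%) of the autosomal genes. Of the 24 X genes with an optimal summit, 4 were in the K highest regions of no replicate, 8 of 1, 6 of 2, 5 of 3 and 1 of all 4. All 24 were listed at some rank in at least 2 replicates, 14 of them in all 4. These counts describe the same replicates from which the optimal list was made.

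C28G1.t1, a tRNA-Glu gene at chrX:8836113-8836184, had the highest signal of any X tRNA gene, 74.4 at rank 178 of the optimal list. It ranked 395, 145, 336 and 108 in replicates 1 to 4 and was the gene found among the K highest regions of all 4. Its summit lay 27 bp upstream of the 5′ end. It overlaps an exon of the protein-coding gene C28G1.2 and lies 97 bp from its start, so a summit there cannot be assigned to one of the genes. Of the 276 X tRNA genes it is the one that overlaps a protein-coding exon, against 9 of the autosomal genes.

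C33G3.t2, a tRNA-Lys gene whose sequence is given above, followed with a signal of 66.7 and a summit inside the gene, 10 bp from its 5′ end. It ranked 276 and 275 in replicates 1 and 2, and 3011 and 13962 in replicates 3 and 4. It was high in the pair with one set of labels and low in the other, and it lies 3966 bp from the nearest protein-coding start, that of lgc-21.

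F15G9.t1 and F15G9.t2, tRNA-Ala genes in tandem 86 bp apart, lie in an intron of him-4, which encodes the matrix protein hemicentin. Their shared summit had a signal of 59.3 and lay between the genes, 84 bp from the 5′ end of F15G9.t1 and 74 bp upstream of F15G9.t2. It ranked 838, 577, 1562 and 257 in replicates 1 to 4, within K in all but replicate 3. R04D3.t2, a tRNA-Val gene, had a signal of 57.2, a summit 49 bp inside the gene, and ranks of 685, 1088, 3211 and 1442, within K in replicate 1 alone.

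Divergent neighbours, tRNA genes that point away from each other across a short spacer, supplied 4 of the 6 summits that were the best summit of a pair of genes. C53C7.t1 and C53C7.t2, both tRNA-Ser, are 130 bp apart and had a signal of 54.5, at ranks 1004, 396 and 224 in replicates 1 to 3, with no region in replicate 4. Their summit lay 16 bp upstream of C53C7.t2 and 115 bp upstream of C53C7.t1. F46G11.t1 and F46G11.t2, identical tRNA-Pro genes 189 bp apart, had a signal of 52.8, with a summit 22 bp upstream of F46G11.t2 and 168 bp upstream of F46G11.t1. A separate optimal summit of lower signal, 41.8 at rank 807, lay inside F46G11.t1, 31 bp from its 5′ end. By its best region F46G11.t1 ranked 613, 669, 177 and 1218 in replicates 1 to 4, and F46G11.t2 had the same ranks in replicates 1, 3 and 4 but no region within 200 bp in replicate 2.

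M02F4.t1, tRNA-Gly, and M02F4.t2, tRNA-Glu, are 116 bp apart and shared a summit with a signal of 49.5 near the middle of the spacer, 59 and 58 bp upstream of the genes. It ranked 277, 3829 and 2051 in replicates 1, 2 and 4 and was not listed in replicate 3. T10B10.t1 and T10B10.t2, both tRNA-Gly, shared a summit with a signal of 44.3 that lay inside T10B10.t2, 57 bp from its 5′ end. It ranked 703, 1780, 2247 and 7596 in replicates 1 to 4. The remaining tandem pair, the tRNA-Pro genes C16B8.t2 and C16B8.t3, had a signal of 48.4, with the summit 24 bp upstream of C16B8.t2. C16B8.t2 ranked 1053, 3580, 1094 and 2186, outside K in every replicate.

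The other genes had signals of 49.4 or less. F41D9.t3, tRNA-Asn in an intron of sulp-3, a gene of the sulphate permease family, had a signal of 49.4 and ranks of 1570, 1140, 316 and 1092. C04E7.t1, tRNA-Leu and 283 bp from the start of sor-3, had 42.5 and ranks of 1173, 944 and 1065 in replicates 1, 2 and 4. K02A4.t1, tRNA-Ser, also had 42.5 and split within both label sets, with ranks of 671 and 8539 in replicates 1 and 2 and of 7493 and 505 in replicates 3 and 4. F14B8.t1, tRNA-Leu in an intron of pes-23 and identical in sequence to C04E7.t1, had 41.5 and was listed in replicates 1 and 2 alone, at ranks 591 and 503. K02A4.t1 is single-copy and every 31-mer of its window occurs once in the genome. It stands at the top of the 24 genes, whose share of such 31-mers ran from 75.6 to 100% with a median of 86.2%.

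W03G11.t1, tRNA-Lys, C42D8.t1, tRNA-Ile and 1096 bp from the start of the ETS factor gene ets-5, and T28B4.t1, tRNA-Phe in an intron of fbxl-4, had signals of 40.4, 40.3 and 40.2. W03G11.t1 ranked 1090, 1364, 3103 and 24211 in replicates 1 to 4, outside K in each, and C42D8.t1 ranked 3675, 673, 934 and 6221. T28B4.t1 ranked 3611, 2872, 260 and 897 in replicates 1 to 4, within K in the pair with the second set of labels. The tRNA-Tyr genes R11.t1 and K09A11.t1, which contain introns and differ by 1 base (A45G, with the base of R11.t1 first), had 38.0 and 37.6. R11.t1 ranked 1039, 2656 and 5345 in replicates 1, 3 and 4, and K09A11.t1 ranked 2040 and 198 in replicates 1 and 3, so neither was listed in replicate 2. Over the 19 summits at X tRNA genes the signal ran from 37.6 to 74.4 with a median of 44.3, against 37.3 to 216.7 with a median of 49.996 for the other 230 optimal summits on X. The strongest summit at an X tRNA gene, that of C28G1.t1, thus ranked 178 of 1037.

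**Figure D3:**
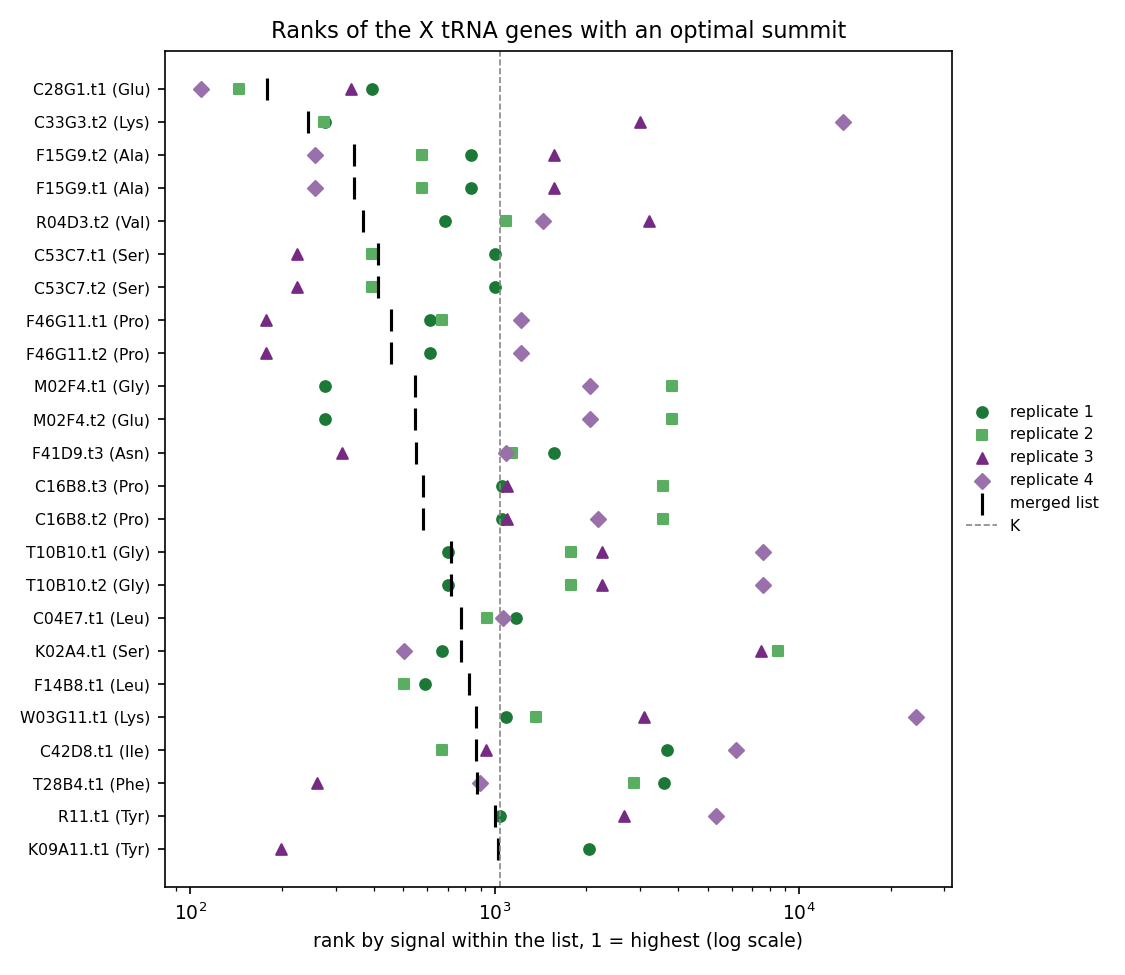
Rank by signal of the best region within 200 bp of each of the 24 X tRNA genes with an optimal summit, in the merged list (black bars) and in the 4 replicates (symbols), on a log axis. A missing symbol means that no region was listed, and the dashed line is K, 1037. C28G1.t1 is the gene with all 4 symbols left of the line.

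Just below the threshold of the optimal list, F22F1.t5, tRNA-Asp, ranked 1128 in the merged list with a signal of 35.5. F38G1.t2, tRNA-Asp, ranked 1191 with 34.6 and lies in an intron of egl-17, which encodes a fibroblast growth factor, 94 bp from its start. F38G1.t2 ranked 947, 1039 and 492 in replicates 1, 3 and 4. The next were C16H3.7, tRNA-Val, at rank 1273, F52H2.t1, tRNA-Asp in an intron of aat-3, at 1296, ZK563.t1, tRNA-Thr, at 1589, and C40H5.t1, tRNA-Leu, at 1670. On the distance rule, T10B10.t1 at 176 bp and C16B8.t3 at 193 bp were the farthest inside 200 bp, and C18A11.t2 at 293 bp and K02A4.t2 at 373 bp the nearest outside. Few genes lay near that limit: a summit was inside 7 of the X genes, within 1 to 100 bp of 14, within 101 to 200 bp of 3 and within 201 to 500 bp of 3.

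In the optimal list, summits at X tRNA genes lay mostly at or near the 5′ end. Of 25 pairs of an X tRNA gene and an optimal summit, 16 had the summit upstream, 7 inside the gene and 2 downstream, and 15 lay within 50 bp of the 5′ end. The median position of the best summit of each gene was −25.5 bp, that is upstream of the gene. The 5 autosomal pairs had 1 upstream, 2 inside and 2 downstream. In the merged list 49 of 125 X pairs were upstream, 45 inside and 31 downstream, and 48, 35 and 30 of 113 autosomal pairs. Per kb of the sequence searched, the merged list had 2.18 summits inside X tRNA genes, 0.888 upstream and 0.562 downstream, against 1.39, 0.714 and 0.446 at autosomal tRNA genes. In the optimal list at X tRNA genes it was 0.339 inside, 0.290 upstream and 0.0362 downstream. The highest density was thus inside the genes in these cases, but not in every replicate. Among the K highest regions at X genes it was 0.217, 0.127, 0.127 and 0.127 upstream in replicates 1 to 4. Inside the genes it was 0.145, 0.0970, 0.145 and 0.0485, the highest in replicate 3 alone. With all regions it was highest inside X genes in replicates 1 and 3 and upstream in replicates 2 and 4. Among the K highest regions of replicates 1 to 4, 50, 38.5, 28.6 and 33.3% of the X pairs lay within 50 bp of the 5′ end, against 60% in the optimal list. Because pairs of genes share summits, these pairs are not independent.

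**Figure D4:**
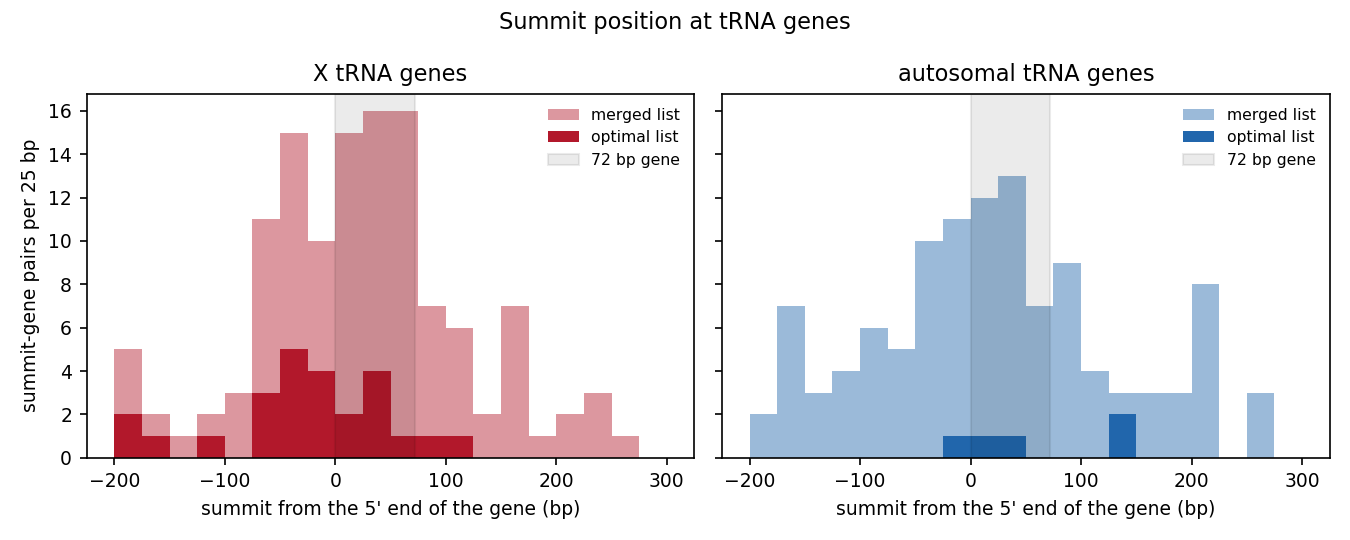
Position of summits relative to the 5′ end of X tRNA genes (left) and autosomal tRNA genes (right), in pairs of a summit and a gene per 25 bp, with negative values upstream. Pale bars are the merged list, dark bars the optimal list, and the grey band is a gene of 72 bp. The optimal summits at X genes gather around the 5′ end, 15 of 25 within 50 bp.

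Arrangement on the chromosome differed between X and the autosomes. X tRNA genes formed 222 loci when genes at most 400 bp apart were joined, 182 with 1 gene and 40 with more, and the largest had 5. The autosomal genes formed 307 loci, 278 with 1 gene and 29 with more, and the largest had 2. Counted by locus, 18 of 222 X loci (8.11%) had an optimal summit, against 5 of 307 autosomal loci (1.63%). Genes alone in a locus had an optimal summit in 11 of 182 cases on X (6.04%), against 5 of 278 on the autosomes (1.80%). Genes in loci of more than 1 gene had one in 13 of 94 cases on X (13.8%), against 0 of 58 on the autosomes. With a divergent neighbour it was 8 of 42 on X (19%), against 0 of 34. Those 8 genes are pairs that share 4 best summits, so each summit counts for 2 genes. Of the 24 genes with an optimal summit, 12 share their best summit with a neighbour. In the merged list the shares on X lay close together, 45.2% with a divergent neighbour, 44.2% with other neighbours and 42.9% alone. Of 21 divergent spacers on X 3 held an optimal summit, as did 1 of 18 tandem and 0 of 15 convergent spacers. The excess on X was thus also present among genes that stand alone. The largest X clusters held none of it: K01A12.t1 to K01A12.t5, of tRNA-Arg and tRNA-Cys at chrX:8623603-8624532, had 1 merged summit, at rank 1932, within 200 bp of 3 of the genes, and H08J11.t1 to H08J11.t5, all tRNA-Gln, had no merged summit.

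The neighbourhood of protein-coding genes also differed. On X 180 tRNA genes were intergenic and 95 lay in introns, against 139 and 188 on the autosomes. An optimal summit was present at 18 of the intergenic X genes (10%), against 3 of the autosomal ones (2.16%), and at 5 of the intronic X genes (5.26%), against 2 (1.06%). X tRNA genes lay farther from the nearest protein-coding start, with a median of 1788.5 bp, against 1128.5 bp. Over 500 bp from every such start there were 243 X genes, 22 with an optimal summit (9.05%), against 238 autosomal genes, 4 with one (1.68%). Within 500 bp it was 2 of 33 (6.06%), against 1 of 98 (1.02%). The order of these classes on X was the other way in the merged list. There 52.6% of intronic and 38.3% of intergenic X genes had a summit. By distance it was 54.5% within 500 bp of a start and 42.0% over 500 bp away. Among the K highest regions it was 5.79% ± 3.27 of intronic and 4.03% ± 2.50 of intergenic X genes (SD, n = 4). Most of the optimal summits at X tRNA genes were thus not near an annotated protein-coding start, and the shares on X were above those on the autosomes in each of these classes.

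The share of 31-mers in the window of gene and flanks that occur once in the genome had a median of 87.3% for X genes and 87.6% for autosomal genes. It was 86.2% for the 24 X genes with an optimal summit, range 75.6 to 100%, and 87.3% for X genes with no merged summit. The GC content of the window was 37.8% at the median for X genes and 41.5% for autosomal genes, and 39.5% for the 24 genes. An optimal summit was present at 20 of 219 X genes with identical copies (9.13%) and at 4 of 57 single-copy ones (7.02%). On the autosomes it was 5 of 250 and 0 of 86. Among those 4 X genes, C16B8.t2, C16B8.t3 and K09A11.t1 differ by 1 base from another X tRNA gene. By copy number the shares differed more among the K highest regions. X tRNA genes with identical copies had a summit among the K highest regions in 5.71% ± 0.791 (SD, n = 4) and single-copy X genes in 2.19% ± 0.877, against 1.60% ± 1.13 and 0.291% ± 0.581 on the autosomes. In the merged list it was 46.1% of X genes with copies and 33.3% of single-copy ones, against 33.2% and 30.2% on the autosomes. Within both classes of copy number the X share was thus the higher one. Not given in the sources used here is how the authors treated reads with several matches, whose part in the results was not tested.

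The 276 X genes had 106 distinct sequences. Of the 33 sequences with at least 2 copies on X, 14 had a copy with an optimal summit, and 0 had one at every X copy. The largest group, tRNA-Pro with 13 copies on X and 11 on the autosomes, had an optimal summit at 2 X copies, F46G11.t1 and F46G11.t2, and a merged one at 5. A tRNA-Glu group with 12 copies on X and 8 on the autosomes had an optimal summit at M02F4.t2 and merged summits at 6. A tRNA-Gly group with 11 and 18 copies had 3, at M02F4.t1, T10B10.t1 and T10B10.t2, and merged summits at 5. Genes of identical sequence thus differed in whether a summit was listed beside them.

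The 24 genes carried 12 of the 20 amino acid identities that RefSeq gives for 273 of the X genes. tRNA-Pro had optimal summits at 4 of 20 X genes, tRNA-Gly at 3 of 20, tRNA-Ser at 3 of 18 and tRNA-Tyr at 2 of 8. tRNA-Arg, the most numerous on X, had 0 of 27, and tRNA-Gln had 0 of 15, tRNA-Thr 0 of 14 and tRNA-Asp 0 of 12. tRNA-Arg genes had a merged summit at 10 of 27 and tRNA-Asp genes at 7 of 12, so the absence was from the optimal list and not from the data. The counts per amino acid are small, and no difference between them was tested.

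**Figure D5:**
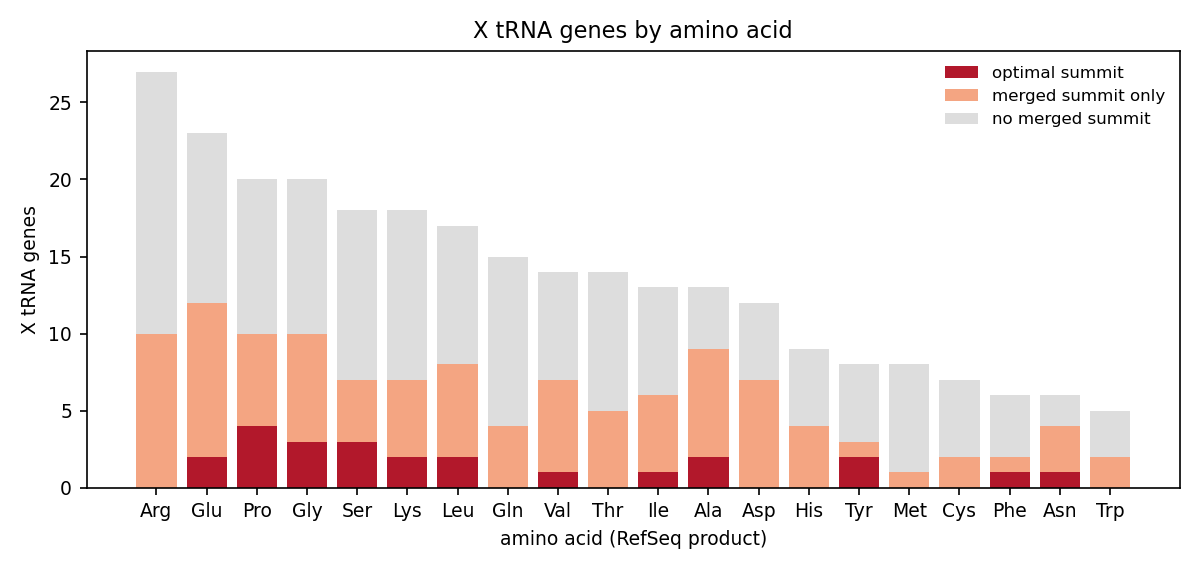
Number of X tRNA genes by amino acid, split into genes with an optimal summit (red), with a merged summit that is not optimal (orange) and with no merged summit (grey). tRNA-Arg has 27 genes and no optimal summit, and tRNA-Pro has 4 of 20.

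Short motifs were looked for in both strands of the 50 bp on each side of the 19 summits. TGACAG, known from Meis proteins of vertebrates, was found at 0 of 19, against 10.3% of the 1018 other optimal summits. TGATTGAT, known for joint binding of Pbx and homeodomain partners, was at 0 of 19, against 3.63%. GAGAGAGA was at 0 of 19, against 9.72%, and CACGTG at 0 of 19, against 4.42%. Within 200 bp of the gene, TGACAG occurred at 47 X tRNA genes, of which 0 had an optimal summit and 19 a merged one, against 54 autosomal genes with 2 and 21. Without TGACAG, 24 of 229 X genes (10.5%) had an optimal summit and 44.1% a merged one. On the autosomes an optimal summit was at 3.70% of genes with TGACAG and at 1.06% without it, the other direction from X. TGATTGAT occurred at 5 X genes with 0 and 2, against 10 autosomal genes with 2 and 4. GAGAGAGA occurred at 10 X genes with 2 (20%) and 7 (70%), against 13 autosomal genes with 1 and 6. Of the X genes without GAGAGAGA 8.27% had an optimal summit and 42.5% a merged one. CACGTG occurred at 14 X genes with 1 and 6, against 18 autosomal genes with 1 and 7. At the 19 summits few matches would be expected from the shares of the other summits, and no difference was tested. These letters were absent within 50 bp of the 19 summits, which says nothing about other sequences.

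Other gene classes ranged from shares well below that of X tRNA genes to shares near it. Of 29 tRNA pseudogenes on X 0 had an optimal summit at the 5′ end and 1 (3.45%) a merged one, against 1 and 12 of 180 on the autosomes. Protein-coding genes on X had an optimal summit at the 5′ end in 0.842%, against 0.748% on the autosomes, and a merged one in 12.2%, against 10.6%. The contrast between X and autosomes was thus much smaller for protein-coding genes scored the same way. snoRNA genes, which guide the modification of other RNAs, had an optimal summit at 0 of 33 on X, against 25 of 313 (7.99%) on the autosomes. Among the K highest regions of replicates 1 to 4 it was 3.03, 0, 0 and 6.06% on X, against 6.39, 5.43, 9.58 and 5.43%. X was thus above the autosomes in replicate 4 alone. A merged summit was at 21.2% of snoRNA genes on X, against 33.5% on the autosomes. snRNA genes on the autosomes had one at 9 of 126 (7.14%), a share near that of the X tRNA genes, and on X at 0 of 3. The 16 genes of 5S rRNA, which RNA polymerase III also transcribes, had no summit within 200 bp in the optimal or merged list. Of all annotated genes 1.02% had an optimal summit at the 5′ end and 11% a merged one. With 16 genes counts of 0 are thus not far from the background. Most of these genes lie on V and many share a name, and how often their sequence repeats was not examined. Of 13 genes for the RNA polymerase III machinery and its regulators, scored with the wider window for protein-coding genes, 0 had an optimal summit, against 2.63% of all protein-coding genes, and 1 a merged one, against 29.1%. With 13 genes an optimal count of 0 is near that background. The merged one was mafr-1, the worm form of the repressor Maf1, at rank 14444 with a signal of 11.9.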

How the data were processed

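Per the labels, ChIP-seq was done on 4 replicates of 1 group. The authors deposited region lists on ce11, in which the signal of each region is the authors' value, on a scale of its own per list, and another deposited column gives the offset of the summit from the region's start. Regions were ranked by signal, each list by itself. Not given in the sources used here were the aligner, the peak caller and the treatment of repeated reads. The ce10 lists and the control were left aside. Depth is unknown, as the lists hold no counts.

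Coordinates are 1-based. Genes came from Ensembl release 115 and amino acid identities from RefSeq, which matched 612 tRNA genes. The 22 mitochondrial tRNA genes were left out, as were the 30 mitochondrial regions in each of replicates 3 and 4 before ranking. A summit counted within 200 bp of a gene (python 3.11.15, numpy 2.4.6, scipy 1.17.1). Figures used matplotlib 3.10.9. Differences were taken within a replicate and tested with exact sign flips, two-sided. The labels call the replicates biological, and a p measures only the spread between them. Nothing was drawn at random. The scoring and the test were tested on simulated data. Counts of other gene classes and counts in the optimal and merged lists have no replicate test.

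The genes named were chosen as up to 20 X tRNA genes of highest optimal signal, those among the K highest regions of at least 3 replicates, up to 6 of best merged rank without an optimal summit, their protein-coding neighbours, the 3 largest identical groups and the largest cluster. C42D8.t1, T28B4.t1, R11.t1 and K09A11.t1, and genes at the limit of the distance rule, were added. C53C7, F46G11 and M02F4 spacers and the window at C28G1.t1 were chosen for display after their values were seen. The members, gene lists and settings were chosen with earlier results of these data known.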

Additional observations from a re-analysis of the deposited data

Results flagged for a closer look

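Among 22 sets of 4 replicate values that were examined for X tRNA genes, 8 shares or differences and 14 genes, 2 had a replicate far from the others. The rule used picks out about 1 in 20 sets of 4 independent normal values. Ranks are not such values, and genes that share a summit enter more than once, so that rate need not hold here. The X minus autosomal share with all regions was 3.08 percentage points in replicate 2, against 11.9 to 13.3 points in the other replicates. The best region at W03G11.t1, a tRNA-Lys gene, ranked 24211 in replicate 4, against 1090 to 3103 in the other replicates.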

How the results depend on the processing

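Over 52 alternative values, 2 counts changed by over 1.5 times, and 0 mean differences turned direction. The optimal count at X tRNA genes was 9, with 0 autosomal, when the 518 optimal regions of higher signal were used, and 18 to 27 elsewhere. The merged count was 60 on X and 60 on the autosomes with 1 count per identical sequence, a setting with fewer units to count. Leaving out each replicate gave X minus autosomal differences of 3.22 to 4.06 points for the K highest regions and 9.22 to 12.6 points for all regions. X minus placements was then 4.09 to 4.56 and 23.0 to 27.4 points. Other settings gave 1.97 points (518 regions per replicate) to 6.24 points (2074 regions) for the K highest, so that the size of the difference, 3.72 points with K regions, depends on how many are taken, and 8.58 to 11.9 points for all regions. With 1 count per identical sequence the all-region difference was above 0 in 3 of 4 replicates (exact permutation p = 0.25). Placements without protein-coding exons, added after seeing the data, gave 4.19 and 24.4 points. No paired analysis was possible between groups because the labels give 1 group, and the differences above are within replicates. With 4 replicates p cannot go below 0.125, the optimal and merged lists are 1 each, and without read counts no value of depth can be given.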
